A study of Mus musculus with 16 samples.

Results

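The 10 genes described here mark immature neurons and neuroblasts: Dcx, Stmn1, Sox11, Dlx1, Dlx2, Dlx5, Sp8, Sp9, Cd24a and Calb2. They were taken by gene symbol, 1 row each, from a table of 23284 genes measured in all 16 libraries of the series. All 10 had a mean above the filter of 0.5 FPKM (fragments scaled to transcript length and library size) that left 13978 genes for testing, and no member was listed at 0 in any library.

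RNA was from the prefrontal cortex of adult mice, aged 2 to 3 months, with 4 libraries for each of 4 genotypes. The study asked how gene activity in this region differs between mice with too much and too little β-catenin, the transcriptional partner of TCF/LEF factors in Wnt signalling. APC cKO mice (APC fl/fl) lose the APC protein, a part of the complex that marks β-catenin for degradation. β-cat cOE mice (ctnnb1 fl(ex3)/+) make a β-catenin that lacks the degradation domain. APC/β-cat cKO mice (APC fl/fl with ctnnb1 fl/fl) lose both proteins. All 3 lines carried the same CamKIIα-Cre-93 driver, which is active mainly in forebrain excitatory neurons and comes on in the early postnatal weeks, and controls were littermates without Cre, pooled over the lines. APC cKOs and β-cat cOEs are called the raised lines below, because both were made to have excess β-catenin.

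In the adult mouse brain, new neurons arise in the subventricular zone beside the lateral ventricle and in the hippocampal dentate gyrus. Neuroblasts of the subventricular zone migrate in chains through the rostral migratory stream, which runs beneath the frontal cortex, to the olfactory bulb. There most become GABAergic granule or periglomerular interneurons under DLX and SP8/SP9 transcription factors. Doublecortin (Dcx) is carried by migrating neuroblasts in both places. Calb2 (calretinin) marks a periglomerular subtype and is also made by a class of cortical interneurons. Stmn1 and Sox11 are broader: many growing neurons express them, and adult neurons retain some Stmn1.

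The members do not share 1 position in the genome. In the mm10 coordinates of the table, Dlx1 (chromosome 2, 71529445 to 71537891) and Dlx2 (chromosome 2, 71543408 to 71546754) are neighbours in opposite orientation with 5.516 kb between them. Sp9 (chromosome 2, 73271926 to 73275771) lies 1.73 Mb beyond Dlx2. Dcx is on chromosome X (143855842 to 143933219), Sp8 on chromosome 12 (118846329 to 118852578) and Sox11 also on chromosome 12 (27334268 to 27342718). Dlx5 is on chromosome 6 (6877805 to 6882068), Stmn1 on chromosome 4 (134468320 to 134473843), Cd24a on chromosome 10 (43579169 to 43584265) and Calb2 on chromosome 8 (110142538 to 110168206).

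Upstream sequences are shown for Dcx, Sp8 and Sp9, members on 3 chromosomes whose levels varied together from library to library. They are the 250 bases before the RefSeq start that matches the table's gene start (build GRCm38.p6), with Dcx at chrX:143933220-143933469 on the minus strand, Sp8 at chr12:118846079-118846328 on the plus strand and Sp9 at chr2:73271676-73271925 on the plus strand. The RefSeq table used here gave an entry for 6 of the 10 members. Capitals mark matches, on either strand, to 3 motifs. For TCF/LEF these were the word CTTTGAA with its variants CTTTGAT or CTTTGTA, and also CTTTGTT; SOX factors share their core. The others were TAATTA, a homeodomain core, and GGGCGG, known as the GC box.
Dcx: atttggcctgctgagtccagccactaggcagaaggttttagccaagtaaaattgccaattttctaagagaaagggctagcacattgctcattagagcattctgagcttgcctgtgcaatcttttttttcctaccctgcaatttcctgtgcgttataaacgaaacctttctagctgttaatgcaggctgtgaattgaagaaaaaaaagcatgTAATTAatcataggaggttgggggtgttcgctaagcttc
Sp8: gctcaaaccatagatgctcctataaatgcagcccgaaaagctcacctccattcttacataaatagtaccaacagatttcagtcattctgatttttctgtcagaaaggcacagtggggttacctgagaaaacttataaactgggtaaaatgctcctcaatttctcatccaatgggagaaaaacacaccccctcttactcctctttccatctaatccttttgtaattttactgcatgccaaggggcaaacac
Sp9: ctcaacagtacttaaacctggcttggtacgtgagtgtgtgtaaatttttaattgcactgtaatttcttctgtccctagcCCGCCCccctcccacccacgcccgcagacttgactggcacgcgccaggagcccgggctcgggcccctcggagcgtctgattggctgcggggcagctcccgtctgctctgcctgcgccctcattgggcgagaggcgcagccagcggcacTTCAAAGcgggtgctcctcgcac
The Dcx stretch held 1 TAATTA, in a sequence with 41.6% G and C. The Sp9 stretch held 1 TCF/LEF word on its minus strand (TTCAAAG as printed) and 1 GC box, with 62.4% G and C. The Sp8 stretch held none of the 3 motifs. Other RefSeq starts of these genes gave other matches: a TCF/LEF word before a second Dcx start, a TCF/LEF word and a GC box before a second Sp8 start, and a TAATTA before a further Sp8 start. Among the 32851 RefSeq upstream stretches of the same length, 14.8% held a TCF/LEF word, 4.84% a TAATTA and 32.7% a GC box. TCF/LEF words and GC boxes are thus common and TAATTA less so, and a match to any of them is only a description.

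As a check of the labels, Apc had a level of 43.9 ± 4.21 FPKM (mean ± SD, n = 4) in controls and 44.5 ± 5.11 FPKM in β-cat cOEs, against 11.7 ± 3.88 FPKM in APC cKOs and 10.05 ± 2.30 FPKM in APC/β-cat cKOs. Ctnnb1, the other gene targeted in the double mutant, was at 155 ± 2.55 FPKM (mean ± SD, n = 4) there and at 159.9 ± 4.54 FPKM in controls (log2 difference -0.05, adjusted p = 0.643), so its summed value over the whole gene shows no loss and does not check that label. The depth of sequencing cannot be read from values without counts, and 5726 to 6649 genes per library were listed at 0. Read from Xist and 4 genes of the Y chromosome, replicate 1 of the controls and replicate 1 of the APC cKOs were from females, and the other 14 libraries were from males. Markers of cortical excitatory neurons were present throughout, with Slc17a7, the vesicular glutamate transporter of these cells, at 395 to 532 FPKM.

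The clearest feature of the 10 genes was variation between libraries of the same genotype, which 9 of them shared, while the genotypes differed by less. APC cKO replicate 1 had the highest value of all 16 libraries for each of those 9, and the exception was Stmn1. No member passed an adjusted p under 0.05 in any comparison of genotypes. In bulk RNA such as this, a different number of cells of a type and a different amount of RNA in each cell cannot be told apart.

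**Figure D1:**
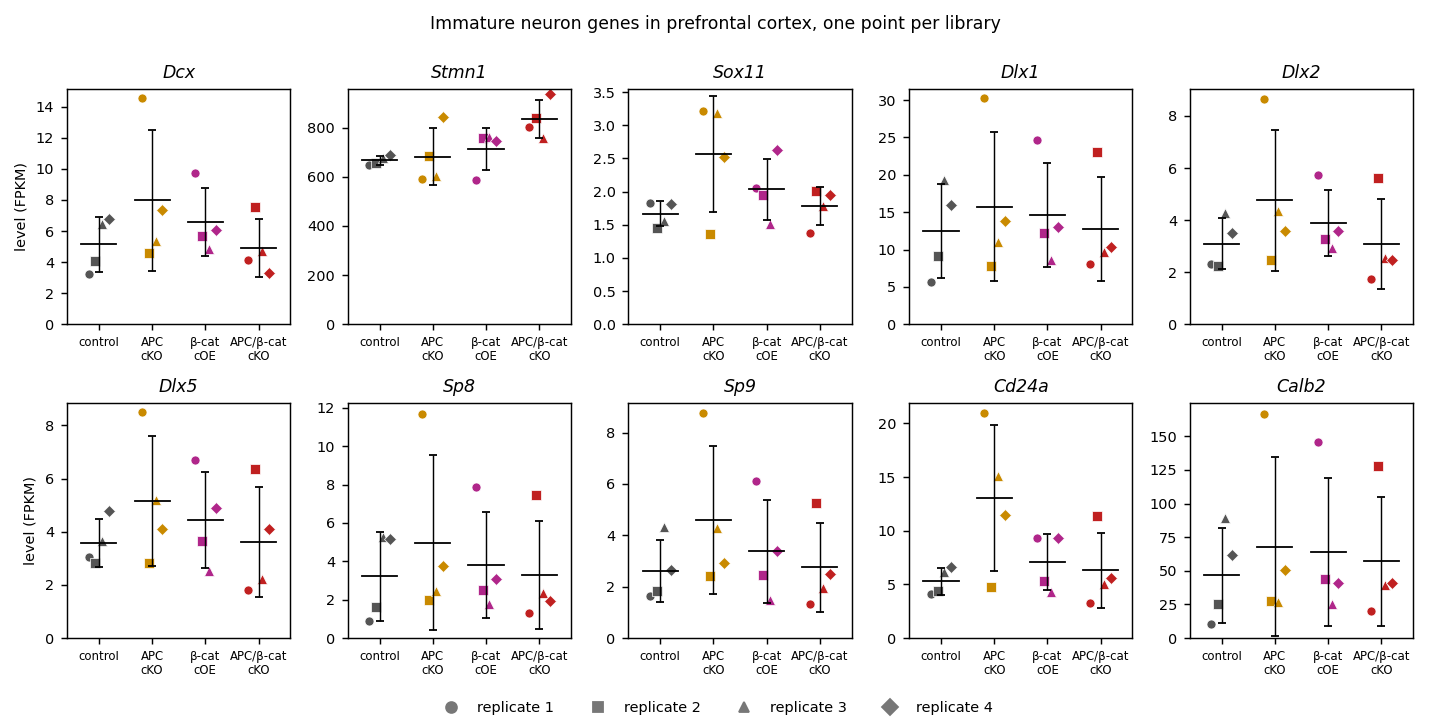
Level of each gene in FPKM (linear axis from 0) in the 16 libraries, by genotype, with 1 point per library, marker shape for replicate, a horizontal line at the mean and bars for the SD (n = 4). APC cKO replicate 1 is the top point in 9 panels, and in the Stmn1 panel the APC/β-cat cKO libraries (759 to 938 FPKM) all sit above the controls (647 to 687 FPKM).

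Among the microtubule genes, Dcx encodes doublecortin, which stabilises microtubules in migrating neurons. It was at 3.25, 4.06, 6.46 and 6.80 FPKM in control replicates 1 to 4, and at 14.6, 4.61, 5.37 and 7.36 FPKM in APC cKO replicates 1 to 4. It was at 9.76, 5.70, 4.83 and 6.07 FPKM in β-cat cOEs and at 4.14, 7.55, 4.71 and 3.27 FPKM in APC/β-cat cKOs. All 4 genotypes overlapped, and the value of APC cKO replicate 1 stood well above those of the other 3 APC cKO libraries. Set against controls, Dcx differed by 0.54 on the log2 scale in APC cKOs (SE 0.35, limma adjusted p = 0.62), by 0.37 in β-cat cOEs (SE 0.35, adjusted p = 0.950) and by -0.06 in APC/β-cat cKOs (SE 0.35, adjusted p = 0.955). Without APC cKO replicate 1, the difference between APC cKOs and controls was 0.20.

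Stmn1 encodes stathmin, which binds free tubulin and promotes microtubule disassembly. It was the most abundant member per unit length and the only one above 200 FPKM. It was at 647, 656, 678 and 687 FPKM in controls, and 803, 839, 759 and 938 FPKM in replicates 1 to 4 of the double mutant APC/β-cat cKO. It was at 591, 686, 604 and 842 FPKM in APC cKOs and at 587, 759, 760.0 and 746 FPKM in β-cat cOEs. All 4 APC/β-cat cKO libraries were above all 4 controls, the only case among the members in which a mutant line and the controls did not overlap. The log2 change was 0.32 (SE 0.11, 95% interval 0.09 to 0.54), with an unadjusted p of 0.00851 and an adjusted p of 0.274 by limma, and an exact two-sided permutation p of 0.0286, the smallest that 4 against 4 libraries can give. The unadjusted p stayed under 0.05 in 26 of 26 other settings of the fit, and the adjusted p ranged from 0.133 to 0.631. APC/β-cat cKOs also had more Stmn1 than APC cKOs, by 0.30 on the log2 scale (SE 0.11, adjusted p = 0.329).

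Sox11, a transcription factor of newly formed neurons, was the least abundant member. It was at 1.83, 1.46, 1.56 and 1.82 FPKM in controls and at 3.22, 1.35, 3.19 and 2.52 FPKM in APC cKOs. It was at 2.06, 1.95, 1.52 and 2.63 FPKM in β-cat cOEs and at 1.38, 2.01, 1.78 and 1.95 FPKM in APC/β-cat cKOs. Of the 4 APC cKO libraries, 3 were above every control, and replicate 2 was below every other library. Its log2 change in APC cKOs was 0.53 (SE 0.23, unadjusted p = 0.0357, adjusted p = 0.461). Its adjusted p in the 26 other settings ran from 0.115 to 0.797, and the lowest value came without APC cKO replicate 2.

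The 3 DLX genes encode homeodomain factors that drive GABAergic neuron development. Dlx1 was at 5.62, 9.11, 19.3 and 16.03 FPKM in controls, 30.2, 7.82, 11.1 and 13.8 FPKM in APC cKOs, 24.7, 12.2, 8.64 and 12.97 FPKM in β-cat cOEs and 8.01, 23.04, 9.70 and 10.3 FPKM in APC/β-cat cKOs. Every genotype held at least 1 library with more than 19 FPKM, so the groups overlapped along nearly their whole range. Dlx1as, the antisense gene that overlaps Dlx1, had the same top library at 22.1 FPKM. The kit kept strand but the counting is not stated to have used it, so reads of the pair may be mixed.

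Dlx2 was at 2.30, 2.25, 4.26 and 3.52 FPKM in controls, 8.67, 2.45, 4.34 and 3.58 FPKM in APC cKOs, 5.72, 3.29, 2.94 and 3.59 FPKM in β-cat cOEs and 1.74, 5.63, 2.55 and 2.46 FPKM in APC/β-cat cKOs. Dlx5 was at 3.05, 2.81, 3.66 and 4.79 FPKM in controls, 8.49, 2.84, 5.19 and 4.09 FPKM in APC cKOs, 6.70, 3.65, 2.51 and 4.88 FPKM in β-cat cOEs and 1.82, 6.35, 2.22 and 4.10 FPKM in APC/β-cat cKOs. Both genes had the same top 3 libraries in the same order, APC cKO replicate 1, β-cat cOE replicate 1 and APC/β-cat cKO replicate 2, and both had their lowest value in APC/β-cat cKO replicate 1. The log2 changes in APC cKOs were 0.29 for Dlx1, 0.51 for Dlx2 and 0.43 for Dlx5, with SEs of 0.46, 0.37 and 0.39.

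Sp8 and Sp9 encode zinc finger factors of olfactory bulb and other forebrain interneurons. Sp8 was at 0.867, 1.61, 5.25 and 5.17 FPKM in controls, 11.7, 1.96, 2.46 and 3.77 FPKM in APC cKOs, 7.86, 2.49, 1.76 and 3.09 FPKM in β-cat cOEs and 1.31, 7.44, 2.37 and 1.95 FPKM in APC/β-cat cKOs. Sp9 was at 1.64, 1.85, 4.32 and 2.65 FPKM in controls, 8.77, 2.41, 4.28 and 2.92 FPKM in APC cKOs, 6.13, 2.48, 1.502 and 3.39 FPKM in β-cat cOEs and 1.34, 5.27, 1.96 and 2.48 FPKM in APC/β-cat cKOs. Sp8 spanned 13.5-fold from its lowest to its highest library and Sp9 6.55-fold. Between genotype means the highest was 1.54 times the lowest for Sp8 and 1.76 times for Sp9. Means of 4 libraries cannot span more than the single libraries do, so these ratios are not set against each other. In APC cKOs the log2 change was 0.59 for Sp8 (SE 0.67) and 0.71 for Sp9 (SE 0.48). The 95% intervals, -0.83 to 2.02 for Sp8 and -0.31 to 1.72 for Sp9, include 0 and leave room for changes in either direction.

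Cd24a encodes a surface glycoprotein of neuroblasts that ependymal cells also carry. It was at 4.11, 4.36, 6.16 and 6.60 FPKM in controls and at 20.996, 4.78, 15.1 and 11.4 FPKM in APC cKOs. It was at 9.34, 5.35, 4.32 and 9.34 FPKM in β-cat cOEs and at 3.31, 11.4, 5.04 and 5.57 FPKM in APC/β-cat cKOs. As for Sox11, 3 of 4 APC cKO libraries were above every control, and replicate 2 lay within the range of the controls. Its mean in APC cKOs, 13.1 ± 6.79 FPKM (SD, n = 4), was 2.46 times that in controls, 5.31 ± 1.26 FPKM. The log2 change of 1.13 (SE 0.42, 95% interval 0.25 to 2.01) had an unadjusted p of 0.0153 and an adjusted p of 0.384 by limma, and the exact two-sided permutation p was 0.0857. The adjusted p stayed between 0.129 and 0.772 in the 26 other settings. Cd24a was also higher in APC cKOs than in APC/β-cat cKOs, by 0.995 on the log2 scale (SE 0.42, adjusted p = 0.443). In β-cat cOEs, the other raised line, the log2 change against controls was 0.36 (SE 0.42, adjusted p = 0.963), and the raised lines differed from each other by 0.77 (adjusted p = 0.722).

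Calb2 encodes calretinin, a cytoplasmic calcium-binding protein. It was at 10.8, 25.5, 88.9 and 61.7 FPKM in controls and at 166, 27.8, 26.8 and 50.5 FPKM in APC cKOs. It was at 146, 44.1, 25.01 and 40.8 FPKM in β-cat cOEs and at 20.5, 128, 39.2 and 40.7 FPKM in APC/β-cat cKOs. Each mutant line had 1 library above 120 FPKM, and the controls spanned 8.26-fold by themselves. The log2 changes were 0.51, 0.53 and 0.37 in APC cKOs, β-cat cOEs and APC/β-cat cKOs, with an SE of 0.74 each.

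Set side by side, the genotype means of 9 members were highest in APC cKOs, and those of all 10 were second highest in β-cat cOEs. The lowest mean was that of the controls for 9 members and that of APC/β-cat cKOs for Dcx. For the 9 members other than Stmn1, no lines next to each other in this order passed the adjusted threshold, with an adjusted p of at least 0.722 between both raised lines, 0.643 between β-cat cOEs and the double mutant, and 0.854 between the double mutant and controls. For Stmn1 the order was APC/β-cat cKO, β-cat cOE, APC cKO and control, and the first exceeded the second by 0.23 on the log2 scale (SE 0.11, unadjusted p = 0.0451, adjusted p = 0.409). The 3 comparisons with control share the same 4 control libraries, so their directions are not independent of each other.

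Against controls, 10 of 10 members were higher in APC cKOs with a median log2 change of 0.52, beside -0.004 over all 13978 genes. All members but Stmn1 rose and fell together over the libraries, so this count is not 10 separate results. The same holds for the counts of direction in the comparisons below. The number of members with an adjusted p under 0.05 was 0 (0.0429% of all genes passed). At an unadjusted p under 0.05 it was 2, Sox11 and Cd24a, where 10% of all genes passed in either direction. By the exact permutation test it was 0, and the groups overlapped for every member (5.47% of all genes had groups that did not overlap).

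In β-cat cOEs, 10 of 10 members were higher than in controls with a median of 0.30, beside -0.004 over all genes. None passed the adjusted threshold (0.0143% of all genes did), the unadjusted threshold (5.07% did) or the exact test, and no member's groups were free of overlap (3.08% of all genes). The log2 changes ran from 0.09 for Stmn1 to 0.53 for Calb2.

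In the double mutant (APC/β-cat cKO), 6 members were higher and 4 lower than in controls with a median of 0.05, beside 0.003 over all genes. Of the 10 members, 0 passed the adjusted threshold (0.207% of all genes did), and 1, Stmn1, passed the unadjusted one (14.2% did). Stmn1 also met the criterion of no overlap (5.21% of all genes did). With 4 against 4 libraries that is the same event as passing the exact test, so it is not counted again. Leaving Stmn1 aside, the log2 changes ran from -0.12 for Dlx5 to 0.37 for Calb2.

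Taking the 8 libraries of the raised lines against the other 8, 9 members were higher and Stmn1 was lower, with a median of 0.42 beside -0.003 over all genes. No member passed the adjusted threshold (0.0572% of all genes did). Sox11, at 0.35 (SE 0.16, unadjusted p = 0.0465), and Cd24a, at 0.68 (SE 0.29, unadjusted p = 0.0348), passed the unadjusted one (8.84% of all genes did). Dcx was at 0.49 (SE 0.24, unadjusted p = 0.0645, adjusted p = 0.593). The smallest exact two-sided permutation p among the members was 0.0577, for Sox11, in a design that can reach 1.55e-04. Dcx, Cd24a and Calb2 are among the genes the study itself listed as altered in the raised lines, a list made from these libraries and so not independent evidence of direction.

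**Figure D2:**
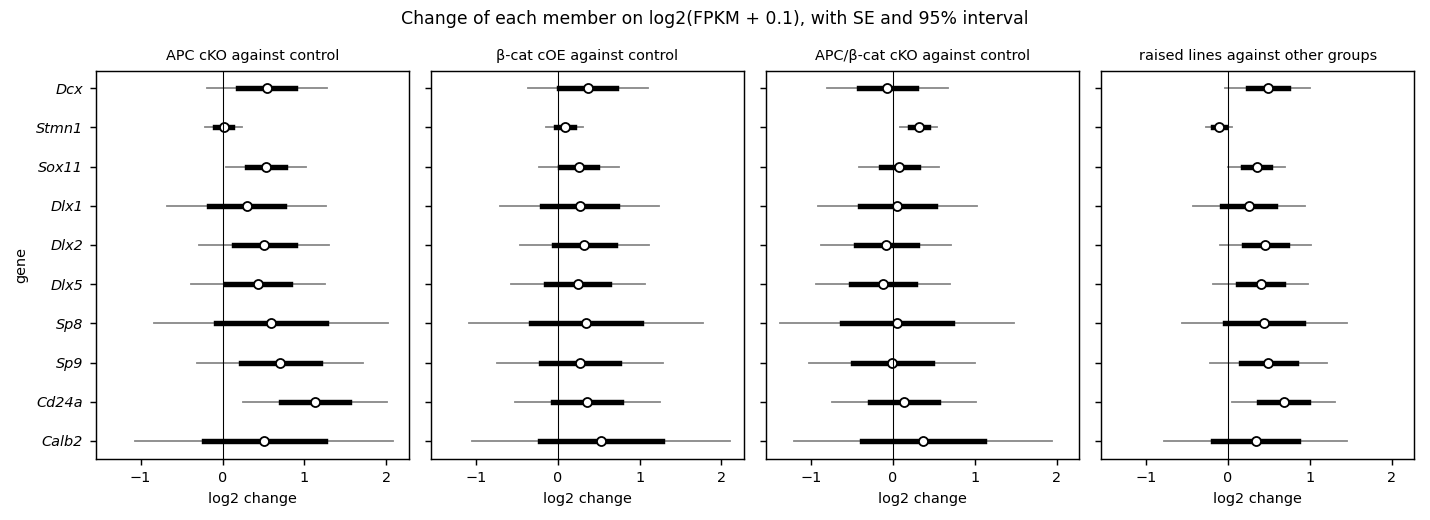
Difference in log2(FPKM + 0.1) for each gene (circle) with its SE (thick bar) and 95% interval (thin line) in 4 panels: each mutant line against controls, and the 8 raised-line libraries against the other 8. Of the intervals, 2 in the APC cKO panel and 2 in the raised-line panel (Sox11 and Cd24a in both) and 1 in the APC/β-cat cKO panel (Stmn1) leave out 0, before adjustment for the number of genes.

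The spread inside each genotype set these intervals. The residual SD of the log2 values had a median of 0.641 over the members and 0.146 over all tested genes, and the median member stood at the 97.2 percentile of all genes. Calb2 (residual SD 1.196) and Sp8 (1.08) were the most variable, while Stmn1 (0.163) stood at the 57.0 percentile. Genotype accounted for 3.99% (Dlx1) to 45.0% (Stmn1) of the variance of a member, with a median of 17.01%, beside 23.9% for the median gene.

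The 9 genes other than Stmn1 went up and down together over the libraries. Summed over the 9, the level ran from 33.4 FPKM in control replicate 1 and 43.6 FPKM in APC/β-cat cKO replicate 1 to 197 FPKM in APC/β-cat cKO replicate 2, 218 FPKM in β-cat cOE replicate 1 and 273 FPKM in APC cKO replicate 1. The 3 libraries with the most came from 3 different genotypes, and the next in order were control replicates 3 and 4, at 139.9 and 109 FPKM. Calb2 made up most of the 5 highest sums. By the mean standardised level of the 10 members, which weights them equally, APC cKO replicate 1 (1.67), APC/β-cat cKO replicate 2 (1.04) and β-cat cOE replicate 1 (0.90) again came first, followed by APC cKO replicate 4 (0.47), β-cat cOE replicate 4 (0.31), and APC cKO replicate 3 and control replicate 3 (0.27 each). APC cKO replicate 1 was among the top 3 libraries for 9 of the 9 genes, β-cat cOE replicate 1 for 7 and APC/β-cat cKO replicate 2 for 7. The libraries at the ends of the range, APC cKO replicate 1 and control replicate 1, are the 2 female ones, and sex was tried as a covariate among the other settings.

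Pairs of the 9 genes had Pearson correlations of 0.38 to 0.98 over the 16 libraries, with a median of 0.86 over the 36 pairs, and 23 pairs were above 0.8. On deviations from the genotype means the median was 0.89, and without the 2 libraries farthest from the median it was 0.78. The points share their libraries and the scale of each library, and no p is given. The highest were those of Dlx1 with Sp8 and with Calb2, at 0.98 each, and the lowest that of Sox11 with Calb2, at 0.38. Stmn1 had negative correlations with all 9, from -0.41 to -0.14, or from -0.32 to 0.04 without the 2 farthest libraries.

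**Figure D3:**
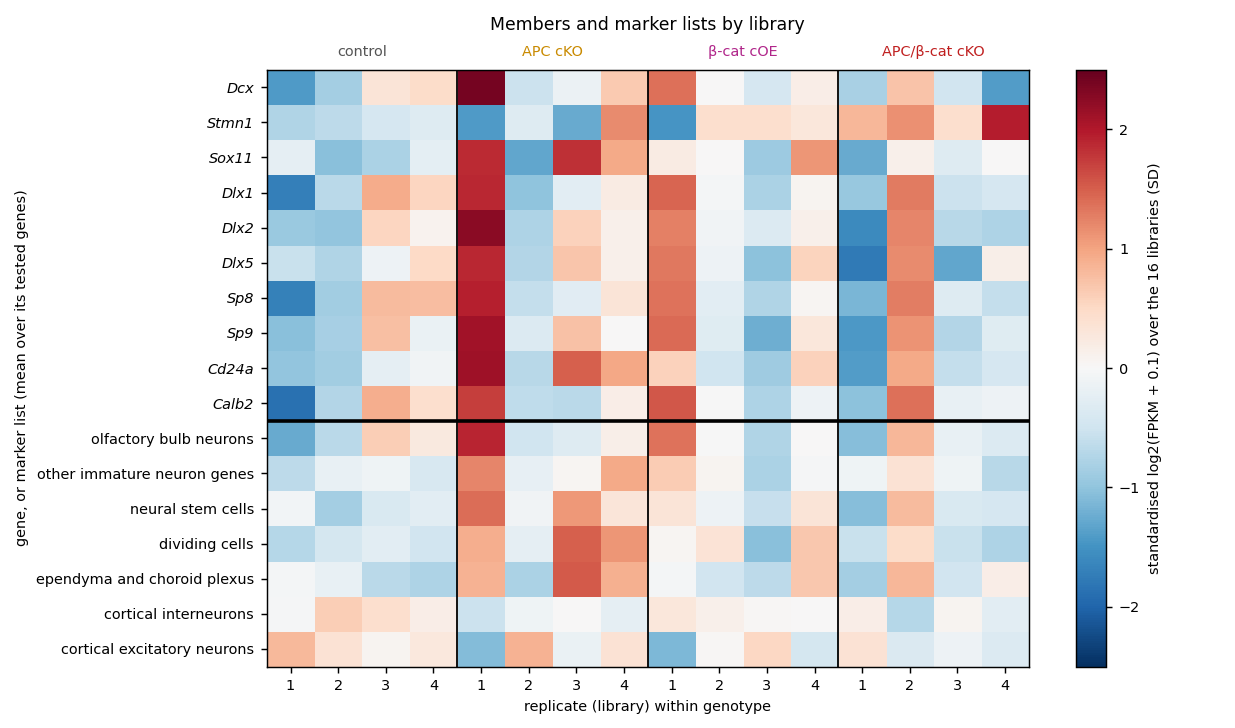
Standardised log2(FPKM + 0.1) of the 10 genes (above the thick line) and the mean of the tested genes of 7 marker lists (below it) in the 16 libraries, grouped by genotype, with red for above and blue for below each row's mean in SD. APC cKO replicate 1, β-cat cOE replicate 1 and APC/β-cat cKO replicate 2 are red in the olfactory bulb row. They are also red in the member rows other than Stmn1 and Sox11. Sox11 is red in APC cKO replicate 1 but near its mean in β-cat cOE replicate 1 and APC/β-cat cKO replicate 2. APC cKO replicate 3 is red for Sox11, Cd24a, ependyma and dividing cells but not for Calb2.

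The 9 genes did not all follow the same course. In APC cKO replicate 3, Sox11 and Cd24a ranked second of the 16 libraries, whereas Calb2 ranked 12, and Dcx, Dlx1 and Sp8 each ranked 9. Among 11 lists of marker genes, the list whose mean level correlated best was that of olfactory bulb neurons for Dcx (r = 0.93), Dlx1 (0.97), Dlx2 (0.92), Sp8 (0.98), Sp9 (0.92) and Calb2 (0.97). It was the DLX and GABAergic genes for Dlx5 (0.88), neural stem cells for Cd24a (0.93), and ependyma and choroid plexus for Sox11 (0.88). Cd24a also correlated with the ependymal list (0.83), and Calb2 did so weakly (0.25). For Stmn1 the list correlations ran from -0.55 (DLX and GABAergic genes) to 0.21 (cortical excitatory neurons), and the last was 0.52 on deviations from the genotype means. These are 110 correlations over the same 16 libraries, given as a description.

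The olfactory bulb list held 17 genes, all tested, among them Th, which makes dopamine in periglomerular cells, Pax6 and Tshz1, transcription factors of bulb interneurons, and Eomes, Tbx21, Cdhr1 and Doc2g of its projection neurons. None was listed at 0. Summed, they were at 197 to 439.6 FPKM in controls, 249 to 709 FPKM in APC cKOs, 239.98 to 622 FPKM in β-cat cOEs and 207 to 486 FPKM in APC/β-cat cKOs. The list's mean had a correlation of 0.94 with the mean of the 10 members over the 16 libraries, 0.95 on deviations from the genotype means and 0.90 without the 2 farthest libraries. Of its 17 genes, 11 had a correlation above 0.8 with the members, as did 1.202% of all tested genes. The list was chosen with earlier results of these data known, so this count is a description and not independent evidence. Th was at 31.3 FPKM in APC cKO replicate 1, 26.4 FPKM in β-cat cOE replicate 1, 23.3 FPKM in APC/β-cat cKO replicate 2 and 16.97 FPKM in control replicate 3, and at 1.15 FPKM in control replicate 1. The part of olfactory bulb tissue in the members' levels was not tested.

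Markers of cortical excitatory neurons ran the other way. Their list (9 of 9 tested, none at 0) had a correlation of -0.80 with the members, and its genes, each taken alone, had correlations from -0.80 (Tbr1) to -0.02 (Bcl11b). It summed to 594 to 669 FPKM in controls, 551 to 714 FPKM in APC cKOs, 579 to 706 FPKM in β-cat cOEs and 623 to 684 FPKM in APC/β-cat cKOs. The list of cortical interneurons (10 of 10 tested, none at 0) had a correlation of -0.49, and 6 of its genes, each taken alone, were below 0. Lhx6 (-0.85), Sst (-0.72) and Pvalb (-0.71), of interneurons from the medial ganglionic eminence, were negative, and Vip, found with calretinin in part of the cortical interneurons, was at 0.02. Htr3a, a serotonin receptor of cortical interneurons, was at 0.74, the highest of the list, and Adarb2 and Crh of the same list were at 0.43 and 0.41. The list's sum was 714 to 957 FPKM in controls, 481 to 733 FPKM in APC cKOs, 624 to 808 FPKM in β-cat cOEs and 759 to 906 FPKM in APC/β-cat cKOs. Calb2 varied 15.5-fold over the libraries, and Vip lay between 41.3 and 63.4 FPKM. The part of cortical interneurons in the level of Calb2 was not tested.

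**Figure D4:**
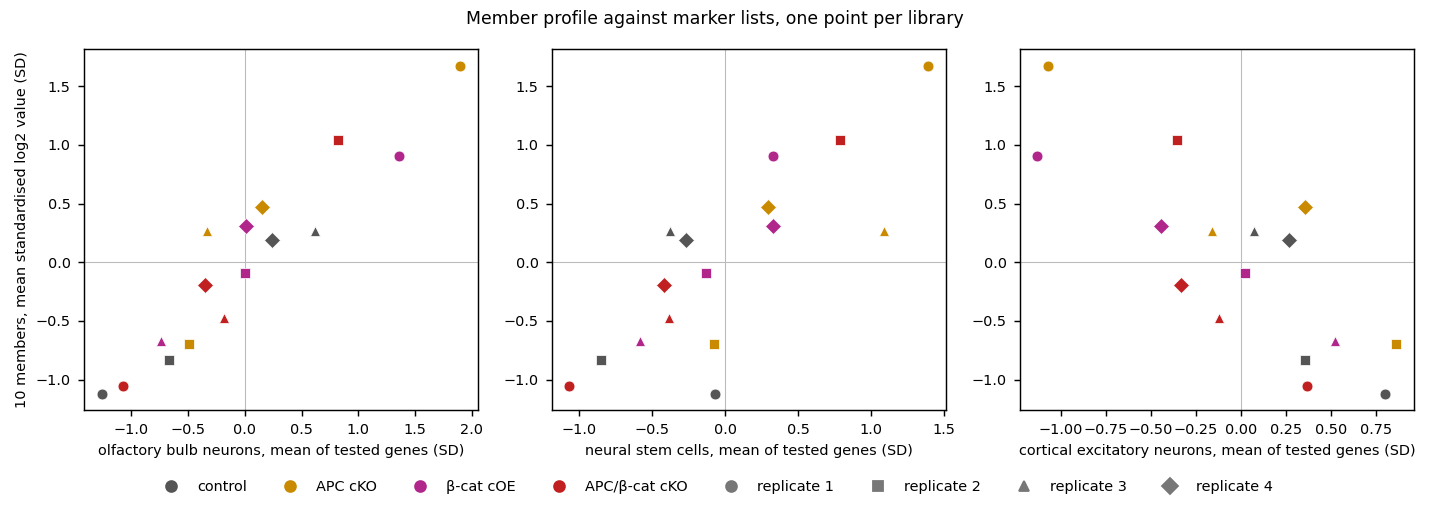
Mean standardised log2 value of the 10 members (vertical, in SD) against the mean of 3 marker lists (horizontal, in SD) for the 16 libraries, coloured by genotype with marker shape for replicate. The points rise with the olfactory bulb list (r = 0.94) and the neural stem cell list (r = 0.80) and fall with the cortical excitatory list (r = -0.80), with genotypes mixed along each course.

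The lists of neural stem cells and dividing cells, earlier stages of the same lineage, followed the members less closely than the olfactory bulb list did. The neural stem cell list (7 of 7 tested, none at 0) had a correlation of 0.80, led by Fabp7 (0.89), a fatty acid binding protein, and Vim (0.87), an intermediate filament, while Nes and Egfr had 0.20 and 0.28. It summed to 99.1 to 193 FPKM in controls, 141 to 307 FPKM in APC cKOs, 109 to 254 FPKM in β-cat cOEs and 91.5 to 299 FPKM in APC/β-cat cKOs. The list of dividing cells (7 of 12 tested) had a correlation of 0.67 at low levels, with a sum of 5.93 to 7.40 FPKM in controls, 7.06 to 15.7 FPKM in APC cKOs, 6.03 to 11.1 FPKM in β-cat cOEs and 6.70 to 9.78 FPKM in APC/β-cat cKOs. Of its 7 tested genes, 4 were higher in APC cKOs than in controls at an unadjusted p under 0.05 (10% of all genes in either direction), and none at the adjusted threshold. The filter used the mean over all 16 libraries, so a gene low in controls could enter through APC cKOs. Pbk and Nuf2 of this list, with means of 0.293 and 0.388 FPKM in controls, were under 0.5 FPKM there, as was Top2a. The count is therefore partly set by the filter. Top2a, a topoisomerase of dividing cells, was at 0.297 to 0.366 FPKM in controls and at 1.10, 0.439, 1.35 and 1.10 FPKM in APC cKOs.

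The ependyma and choroid plexus list (6 of 7 tested) had a correlation of 0.60 with the members. Its sum was 5.68 to 8.85 FPKM in controls, 5.41 to 30.7 FPKM in APC cKOs, 6.15 to 20.2 FPKM in β-cat cOEs and 6.12 to 22.4 FPKM in APC/β-cat cKOs, and Ccdc153, a ciliary gene, was listed at 0 in control replicate 3 and APC/β-cat cKO replicate 3. Foxj1, the ciliogenesis factor of ependymal cells, was at 3.38, 0.459, 4.69 and 1.40 FPKM in APC cKOs and at 0.559 to 1.11 FPKM in controls. So the 3 APC cKO libraries with more Sox11 and Cd24a than any control also had more Foxj1 than any control, and replicate 2 had less. The part of these cells in the levels of Sox11 and Cd24a was not tested.

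Other genes of immature neurons, from a list of 13 of which 12 were tested, were divided. The mean of this list had a correlation of 0.78 with the members, or 0.62 without the 2 farthest libraries. The olfactory bulb list (0.94), the DLX and GABAergic list (0.87) and the neural stem cell list (0.80) had higher ones. Sox4, the close relative of Sox11, had a correlation of 0.92 with the members, Igfbpl1 0.88, Nrep 0.84, and Dpysl5 and Marcksl1 0.83 each, whereas Stmn2, a stathmin relative of mature and growing axons, had -0.63, Celsr3 -0.23 and Gap43 -0.17. In APC cKOs, 10 of the 12 were higher than in controls with a median of 0.19, 5 at an unadjusted p under 0.05 (10% of all genes) and 0 at the adjusted threshold. In β-cat cOEs, 9 of 12 were higher with a median of 0.04 and 0 passed either threshold, and in APC/β-cat cKOs 6 of 12 were higher with a median of -0.004 and 2 passed the unadjusted one (14.2% of all genes). Igfbpl1 was at 0.414 to 1.27 FPKM in controls and at 5.92, 0.642, 3.24 and 3.14 FPKM in APC cKOs, with a log2 change of 1.60 (SE 0.62, adjusted p = 0.412). It is one of the genes the study listed from these libraries, as are Top2a, Pax6 and Tshz1. The list summed to 983 to 1028 FPKM in controls, 1053 to 1166 FPKM in APC cKOs, 982 to 1067 FPKM in β-cat cOEs and 1058 to 1088 FPKM in APC/β-cat cKOs.

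The DLX and GABAergic list (8 of 9 tested) had a correlation of 0.87, with Dlx6os1 at 0.85 and Dlx6 at 0.69. Of the enzymes that make GABA, Gad1 had 0.85 and Gad2 0.26. Its sum was 306 to 392 FPKM in controls, 299 to 526 FPKM in APC cKOs, 311 to 498 FPKM in β-cat cOEs and 283 to 376 FPKM in APC/β-cat cKOs, and Gsx2, a progenitor factor, was listed at 0 in APC/β-cat cKO replicate 3. All 8 tested genes were higher in APC cKOs (median 0.23) and in β-cat cOEs (median 0.12) than in controls, and 2 of 8 were in APC/β-cat cKOs (median -0.07). These genes share their libraries, so the counts of direction are not separate results. In all, 1 gene, in APC cKOs, passed an unadjusted p under 0.05 (10% of all genes) and 0 the adjusted threshold.

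The dentate gyrus list (4 of 5 tested, none at 0), chosen for the other neurogenic region, had a correlation of -0.50 with the members, or -0.72 without the 2 farthest libraries. Its genes, each taken alone, were divided, with Calb1 at -0.68, Neurod1 at -0.38, Prox1 at -0.22 and Tdo2 at 0.21. It summed to 64.0 to 87.9 FPKM over the libraries, most of it Calb1 (mean 69.0 FPKM). Prox1 is also in the list of cortical interneurons, so the list does not stand for dentate gyrus cells alone. Oligodendrocyte progenitors (6 of 6, none at 0) had a correlation of 0.15 with the members, with sums of 59.6 to 75.95 FPKM. Striatal projection neurons (9 of 9, none at 0) had -0.35, with sums of 132 to 524 FPKM in controls, 162 to 725 FPKM in APC cKOs, 136 to 387 FPKM in β-cat cOEs and 157 to 525 FPKM in APC/β-cat cKOs. The highest of these sums was in APC cKO replicate 3. Single members had correlations with this list from -0.63 (Calb2) to 0.29 (Sox11), and Cd24a had -0.02.

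Outside the members, the 15 genes, among those averaging 1 FPKM or more, whose levels were most like the mean of the 10 members over the 16 libraries had correlations of 0.92 to 0.95. They were Btg1, Pbx3, Cnn3, Cacng5, Amigo2, Smoc1, Tshz1, Meis1, H3f3b, Isoc1, Fam196b, Fam70a, Sall1, Sox4 and Sall3. Pbx3 and Tshz1 are in the olfactory bulb list and Sox4 in the list of immature neurons, and Meis1, Sall1 and Sall3 encode developmental transcription factors. On deviations from the genotype means their correlations were between 0.92 and 0.97.

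The size of the genotype differences turned on single libraries. Without APC cKO replicate 1 the median change of the members in APC cKOs was 0.17 in place of 0.52, and without replicate 2 it was 0.78. Without β-cat cOE replicate 1 the median in β-cat cOEs was 0.07 in place of 0.30. In APC/β-cat cKOs it was -0.28 without replicate 2 and 0.25 without replicate 1. For Cd24a the change in APC cKOs was 0.84 without replicate 1 and 1.55 without replicate 2, and for Sox11 0.40 and 0.80, so both kept their direction, whereas Dlx1 went from 0.29 to -0.08 and Calb2 from 0.51 to -0.07 without replicate 1.

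**Figure D5:**
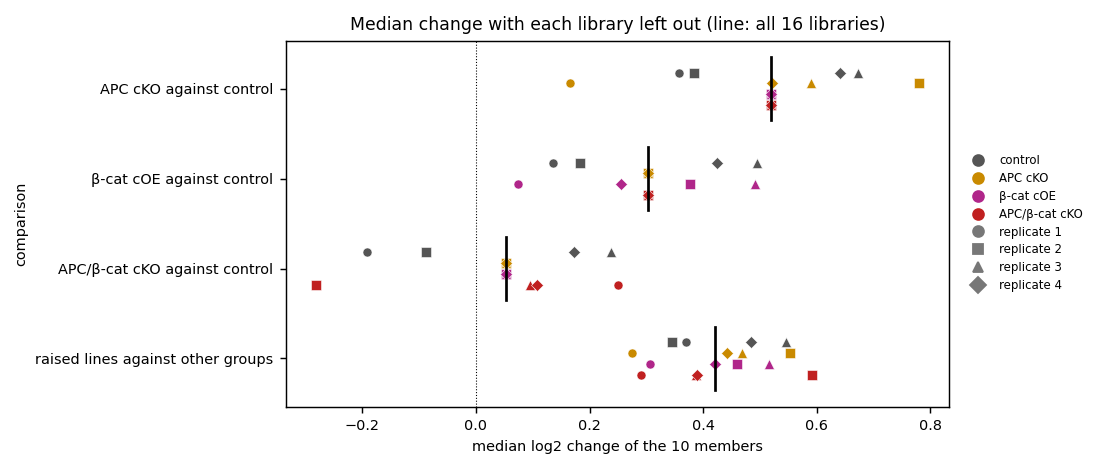
Median log2 change of the 10 members (horizontal) in 4 comparisons with each of the 16 libraries left out in turn, each point coloured by the genotype of the library left out with marker shape for its replicate, and a vertical line at the value with all libraries. The median stays above 0 for both raised lines, from 0.17 to 0.78 in APC cKOs and 0.07 to 0.50 for β-cat cOEs, and lies on either side of 0 in APC/β-cat cKOs.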

How the data were processed

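Poly(A) RNA from the prefrontal cortex of 16 mice was prepared with a stranded mRNA kit and sequenced, and genotypes were taken from the sample labels. The authors mapped reads to mm10 with TopHat2 2.0.10 and made expression values with the Cufflinks tools (Cuffdiff 2.1.1 in the submitters' processing notes). The deposited numbers carry no stated log base or offset and were taken to be log2, read here as log2(FPKM + 1): FPKM times transcript length in kilobases then summed to 592239 to 627186 per library over 20887 genes, against 5279898 to 5871089 for natural logs, more than FPKM allows. The table was assumed to hold FPKM when the tests were planned, so values were turned back into FPKM. No value column was left unused.

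Genotypes were compared with limma 3.58.1 (R 4.3.3; lmFit, contrasts.fit, eBayes with a trend) on log2(FPKM + 0.1), in 1 model of all 16 libraries over the 13978 genes that averaged 0.5 FPKM or more, with Benjamini-Hochberg adjustment over all of them. The log2(value + pseudocount) scale understates changes of low genes. Single genes were also compared with exact two-sided permutation tests (smallest p 0.0286 for 4 against 4). The labels do not say how many litters the mice came from. Correlations were taken over libraries with the mean standardised log2 value of the 10 members, leaving the gene itself out if it was a member. The scripts were tested on simulated data.

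The 10 members and the 11 marker lists (104 entries, all matched, 5 by an older symbol) were chosen with earlier results of these data known. The genes named are the members, the list genes, the 15 genes most like the members among those averaging 1 FPKM or more, Apc and Ctnnb1, and the genes of the sex check. Dlx1as, which could share reads with Dlx1, was added after its values were seen. Promoter stretches were from RefSeq. The alternatives were another pseudocount, filter, scaling, trend or sample set, sex as a covariate, a replicate block, and each library left out. Python 3.11.15 with pandas 2.3.3, numpy 2.4.6, scipy 1.17.1 and matplotlib 3.10.9 made the tables and plots.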

Additional observations from a re-analysis of the deposited data

Results flagged for a closer look

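In 40 groups of 4 libraries (10 genes in 4 genotypes), the highest or lowest library was tested for its distance from the rest with Dixon's ratio. Stmn1 in β-cat cOEs was the 1 group beyond the critical value for 4 libraries, with a ratio of 0.928: replicate 1 was at 587 FPKM and the other 3 at 746 to 760.0 FPKM. Chance alone would give about 2 such groups in 40. The same library was among the top 3 of the 16 for 7 of the other 9 genes. APC cKO replicate 1, the top library of 9 genes, did not pass the ratio for any of them.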

How the results depend on the processing

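No member passed an adjusted p under 0.05 in any of the 26 other settings of any comparison. The median change of the members had the same sign in every setting for APC cKOs (0.17 to 0.78), for β-cat cOEs (0.07 to 0.50) and for the raised lines (0.27 to 0.59), but not for APC/β-cat cKOs (-0.28 to 0.25 with a library left out). The number of members at an unadjusted p under 0.05 was 0 to 2 for APC cKOs and 0 to 5 for the raised lines when each library was left out, in APC cKOs 0 without APC cKO replicate 1 and 1 without control replicates 2 or 3 or APC cKO replicates 3 or 4. For the raised lines it was 5 without APC/β-cat cKO replicate 2 (9.56% of all genes) and 4 without APC cKO replicate 2 (10.8%). It was 3 without control replicate 4 (8.96%) or β-cat cOE replicate 3 (9.97%). It was 0 without control replicate 2, APC cKO replicate 1, β-cat cOE replicates 1 or 4, or APC/β-cat cKO replicates 1 or 3. For APC cKOs it was 0 with the number in the sample title as a block (6.48% of all genes) and 1 with only the groups compared (10.8%), in place of 2. For the raised lines it was 1 with no filter, with a mean of at least 2 FPKM, with quantile scaling and with the block, in place of 2. Same-numbered libraries did not deviate together (median correlation -0.07 over 21 pairs, 4 above 0.1, and 5 of 16 libraries were most like one of their own number), so the replicate block has no basis in a stated pairing. A block of sets of consecutive column numbers, chosen after seeing the data, moved no count of members by over 1.5 times. The share of all genes moved as well: with each library left out, 3 to 43 genes passed the adjusted threshold in APC cKOs, the higher number being that without control replicate 1, then 1 to 3 for β-cat cOEs, 10 to 56 in APC/β-cat cKOs (10 without its replicate 2, 56 without control replicate 1) and 7 to 11 for the raised lines, and the unadjusted shares were 7.14% to 12.98%, 3.66% to 7.06%, 7.60% to 20.8% and 7.004% to 10.8%.

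The direction of single members turned in some settings, none of them past the adjusted threshold. In APC cKOs, Stmn1 became -0.093 with the replicate block. In APC/β-cat cKOs, Dcx became 0.0062 and Dlx2 0.027 with sex as a covariate, and Sp9 became 0.010 with a pseudocount of 1, 0.024 with quantile scaling and 0.089 with sex. With each library left out, the range in APC cKOs was -0.092 to 0.079 for Stmn1, -0.081 to 0.56 for Dlx1 and -0.066 to 0.96 for Calb2. In β-cat cOEs it was -0.057 to 0.53 for Dlx1, -0.13 to 0.69 for Sp8, -0.061 to 0.59 for Sp9 and -0.036 to 0.98 for Calb2. In APC/β-cat cKOs it was -0.29 to 0.10 for Dcx, -0.28 to 0.31 for Dlx1, -0.41 to 0.14 for Dlx2, -0.44 to 0.14 for Dlx5, -0.44 to 0.40 for Sp8, -0.37 to 0.27 for Sp9, -0.19 to 0.39 for Cd24a and -0.20 to 0.81 for Calb2. The cause of these turns was not tested. Depth is unknown, so counting error could not be separated from the spread between mice.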
